A study of Mus musculus with 4 samples.

Results

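The 45 genes examined here encode protein subunits of the cytoplasmic ribosome, 25 of the large subunit (Rpl genes) and 20 of the small subunit (Rps genes), out of 21883 protein-coding genes. They were chosen by name, as genes whose promoters are active in nearly all cells, and every ATAC-seq peak within 1 kb of either end of a gene's span was assigned to it. The cells were lung endothelial cells sorted by flow cytometry from Dnmt3a KO mice (2 libraries) and WT mice (2 libraries), with no treatment in the labels. Dnmt3a encodes a de novo DNA methyltransferase. The labels give neither the age of the mice nor how, or in which cells, the gene was deleted. They also do not say that replicate libraries are separate animals, so p-values measure only the spread between these libraries, which may be technical.

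Each ribosome holds nearly every one of these proteins in equal number, so their genes are transcribed together at a high level in almost all cells. Their promoters lie in CpG-rich sequence that normally stays unmethylated, mostly lack a TATA box and start transcription within a run of pyrimidines, which marks the mRNAs for growth-dependent translation. ATAC-seq finds such sites because a transposase inserts adapters where DNA is free of nucleosomes. The question was how completely, and at what width, each list called this constitutive set.

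The 4 peak lists differed in their make-up before any gene was considered. They held 85091 to 101442 peaks, and the shortest list, KO replicate 1, had the widest peaks (median 467 bp), while KO replicate 2 had the narrowest (median 407 bp) and the WT lists lay between (431 and 443 bp). The lists carry positions and widths only, so read depth was unknown, and the number of libraries limits the precision. All 10 endothelial markers, Cdh5 and Pecam1 among them, had a peak near a gene end in each library, against 1 of 7 leukocyte markers in each library and 5 or 6 of 7 epithelial ones. Cd3e, Itgam and Ly6g, which mark T cells, myeloid cells and neutrophils, had 0 peaks within the gene or near its ends in every library. Inside their spans, Csf1r had 3 peaks in every library (the widest 643 to 704 bp) and Ptprc had 1 (335 to 387 bp). Of the other markers, 3 of 4 fibroblast and 4 of 4 mural genes had one in each library.

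Promoters of 6 genes carry the results below and are shown first, from 120 bases before the RefSeq gene start through the first 30 transcribed bases (RefSeq, GRCm38.p6, the mm10 assembly). Rpl35 and Rpl26 had the lowest KO minus WT difference in peak width. Rps28 and Rps19 hold a palindromic element that Rpl26 also has. Rps23 had the same peak edges in 3 libraries, and Rps2 was the only gene without a peak near an end of its span. The windows are chr2:39005102-39005251 (minus strand) for Rpl35, chr11:68901446-68901595 (plus strand) for Rpl26, chr17:33824533-33824682 (minus strand) for Rps28, chr7:24884472-24884621 (plus strand) for Rps19, chr13:90923002-90923151 (plus strand) for Rps23 and chr17:24719943-24720092 (plus strand) for Rps2. Capitals mark matches to 6 short motifs. On either strand these were CCGGAAG (the core bound by ETS family factors), AAGATGG (YY1-type), GGGCGG (Sp1-type), TATAAA (the letters of a TATA box) and CTCGCGA (part of a palindrome), and on the gene's own strand CTTTCC (a pyrimidine run). CTCGCGA and its reverse complement overlap in the palindrome CTCGCGAG, and in Rpl35 the reverse complement of GGGCGG runs into CTTTCC. The TATAAA marked in Rps2, the palindrome in Rps28 and the CCGGAAG in Rpl26 lie within the transcribed bases.
Rpl35: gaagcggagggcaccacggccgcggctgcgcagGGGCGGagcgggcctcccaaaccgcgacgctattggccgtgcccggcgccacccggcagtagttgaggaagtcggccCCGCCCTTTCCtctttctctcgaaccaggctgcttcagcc
Rpl26: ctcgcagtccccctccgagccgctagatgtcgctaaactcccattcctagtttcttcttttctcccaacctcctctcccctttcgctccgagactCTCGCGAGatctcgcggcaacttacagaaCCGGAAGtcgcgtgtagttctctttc
Rps28: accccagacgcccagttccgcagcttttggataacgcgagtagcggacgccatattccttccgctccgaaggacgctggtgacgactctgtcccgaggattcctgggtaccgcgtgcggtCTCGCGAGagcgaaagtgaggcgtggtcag
Rps19: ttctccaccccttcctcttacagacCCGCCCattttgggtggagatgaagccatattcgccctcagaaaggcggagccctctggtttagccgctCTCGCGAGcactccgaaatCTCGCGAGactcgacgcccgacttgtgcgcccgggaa
Rps23: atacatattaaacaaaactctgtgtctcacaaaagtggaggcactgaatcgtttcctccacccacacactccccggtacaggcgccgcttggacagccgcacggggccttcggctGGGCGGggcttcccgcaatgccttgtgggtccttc
Rps2: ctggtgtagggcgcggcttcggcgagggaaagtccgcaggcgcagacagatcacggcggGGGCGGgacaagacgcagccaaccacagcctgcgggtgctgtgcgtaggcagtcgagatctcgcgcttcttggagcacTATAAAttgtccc

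The RefSeq promoter table held 300 bases, 250 before and 50 after the start, for 37 of the 45 genes; Rpl3, Rpl7, Rpl8, Rpl30, Rpl32, Rps14, Rps20 and Rps29 had no entry. CCGGAAG was present in 14 of the 37 windows (37.8%), against 12.1% of 17491 promoters and 19.4% of the 9977 whose start lay under a peak in all 4 lists. CTCGCGA was present in 8 windows (21.6%), against 2.78% of all promoters and 4.41% of the covered ones, and the 8 were those of Rpl12, Rpl26, Rpl35, Rps6, Rps9, Rps15, Rps19 and Rps28. CTTTCC was present in 14 windows (37.8%), against 13.8% and 14.2%. GGGCGG was present in 18 windows (48.6%), against 47.1% of all and 69.5% of covered promoters. TATAAA was present in 2 (5.41%, Rps2 and Rps28), against 13.1% and 6.0%, and AAGATGG in 3 (8.11%), against 6.38% and 7.26%. The windows held 8 to 34 CpG dinucleotides with a median of 21, against 14 for all promoters and 22 for covered ones. These are matches of letters and describe no bound factor.

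The ribosomal protein genes had a peak in every list, with the exception of Rps2. Of the 45 genes, 44 (97.8%) had at least 1 peak within 1 kb of a gene end in each of the 4 libraries, and these were the same 44. Over all 21883 protein-coding genes, such a peak was present at 62.8% and 65.0% in KO and at 65.4% and 65.1% in WT, and at 62.0% in all 4 lists. No gene of the 45 had a peak in both libraries of 1 genotype and neither of the other, a pattern held by 0.146% of all genes for KO and 0.471% for WT. The number of genes with a peak was the same in both genotypes (44 in each library, exact permutation p = 1.0, two-sided, n = 2 each; 2 against 2 cannot go below 0.333).

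**Figure D1:**
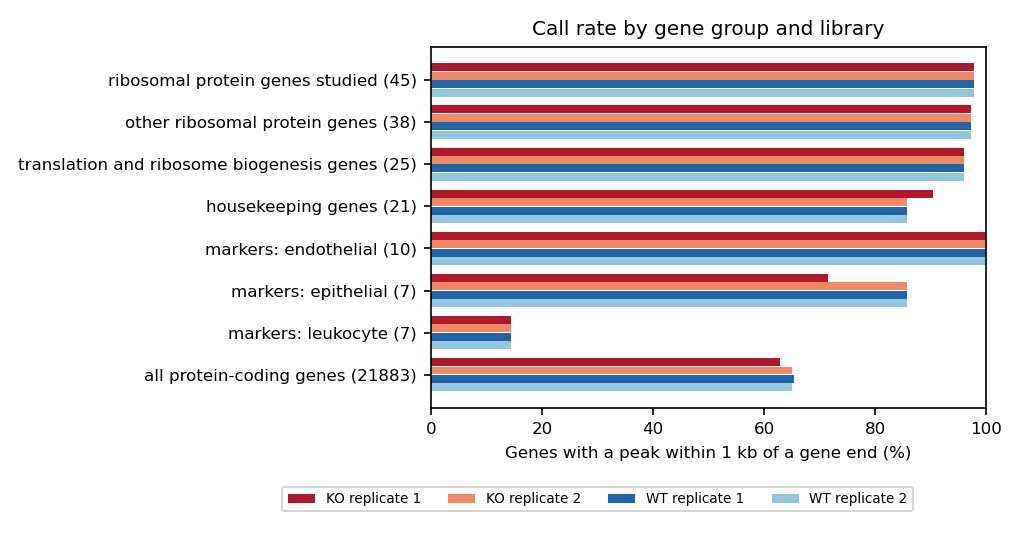
Share of genes with a peak within 1 kb of a gene end (x axis, %) for gene groups with 7 or more genes (y axis, group size in parentheses), 1 bar per library. The 45 ribosomal protein genes stand at 97.8% in all 4 libraries, against 62.8% to 65.4% of all protein-coding genes.

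Rps2, the 1 gene of the 45 (2.22%) with a peak in 0 lists, against 33.2% of all genes, encodes a small-subunit protein near the site where mRNA enters the ribosome. Its RefSeq span (chromosome 17, 24718121 to 24721927) begins 1942 bp before its listed start at 24720063, so a peak at that start lies over 1 kb from both ends of the span. Each library did hold a peak over this start, 695 and 682 bp wide in KO and 672 and 685 bp wide in WT. The groups overlapped, and with peaks counted anywhere in the span or its flanks all 45 genes had a peak in each library. By start site, all 37 genes with a RefSeq start had a peak over at least 1 listed start in all 4 lists, against 57.0% of 17491 genes. Where a gene had several starts, a start covered in all 4 lists was preferred, in both sets.

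Long gene models set apart 3 more genes. Rpl22, which encodes a large-subunit protein known as a tumour suppressor in T cells, has 2 listed starts. The outer one, at chromosome 4, 152324436, lay under 0 peaks, and the inner one, at 152325726, lay under a peak in all 4 libraries (919 and 842 bp in KO, 894 and 882 bp in WT). The peak that the 1 kb rule gave for Rpl22 was another, near the far end of the gene, 465 and 387 bp wide in KO and 482 and 476 bp in WT, the narrowest of the 44. For Rpl18 and Rpl19 the listed start lay 2604 and 4707 bp inside the span, under peaks of 781 to 831 bp and 886 to 987 bp in all 4 libraries. The widest end peak covered the start in every list for 32 of the 37 genes, the others being Rpl4, Rpl18, Rpl19, Rpl22 and Rps2.

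The peaks near these genes were few and shared. They numbered 51 and 53 for KO and 55 and 53 for WT (difference in means -2.0, exact permutation p = 0.667, n = 2 each). Joined across lists they made 53 regions, of which 50 (94.3%) were called in all 4 lists, against 66.7% of 113056 regions genome-wide. The genome-wide regions include those away from gene ends and were not matched for width. Of the other 3 regions near the ribosomal protein genes, that near Rpl3 was missing from KO replicate 2. A region near Rpl34 was missing from KO replicate 1, and a region near Rpl23 was called only in WT replicate 1. All 3 were narrow where called, at 218 to 455 bp. No region followed the genotype. In every list 35 genes had exactly 1 peak, and 9 (20.0%) had 2 or more in at least 1 list, against 24.2% of all genes. Rpl3, whose protein reaches toward the catalytic centre of the large subunit, had most, with 11 over the 4 lists, followed by Rpl4 and Rpl34 with 10 each.

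Median peak widths at these genes stood close to those of all genes in the same list. Taking the widest end peak per gene, the median over the 44 genes was 888 bp in KO replicate 1, 774 bp in KO replicate 2, 853 bp in WT replicate 1 and 864 bp in WT replicate 2. The 2 KO libraries were the widest and the narrowest, so the groups overlapped, with a KO mean of 831 ± 80.6 bp and a WT mean of 858.5 ± 7.78 bp (SD, n = 2 each, exact permutation p = 1.0). Over all 13576 genes with a peak in the 4 lists the medians were 877.5, 768, 831 and 856 bp in the same order, so the ribosomal protein genes stood at 1.01, 1.01, 1.03 and 1.01 times the level of the list. Without KO replicate 2 the KO minus WT difference turned from -27.5 bp to 29.5 bp, and without KO replicate 1 it was -84.5 bp. KO replicate 1 was wider than KO replicate 2 at 32 of the 44 genes (72.7%), against 69.3% of all genes. KO replicate 2 was the narrowest of the 4 libraries at 27 of the 44 genes (61.4%), against 56.2% of all genes, and KO replicate 1 the widest at 20 (45.5%), against 44.0%.

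**Figure D2:**
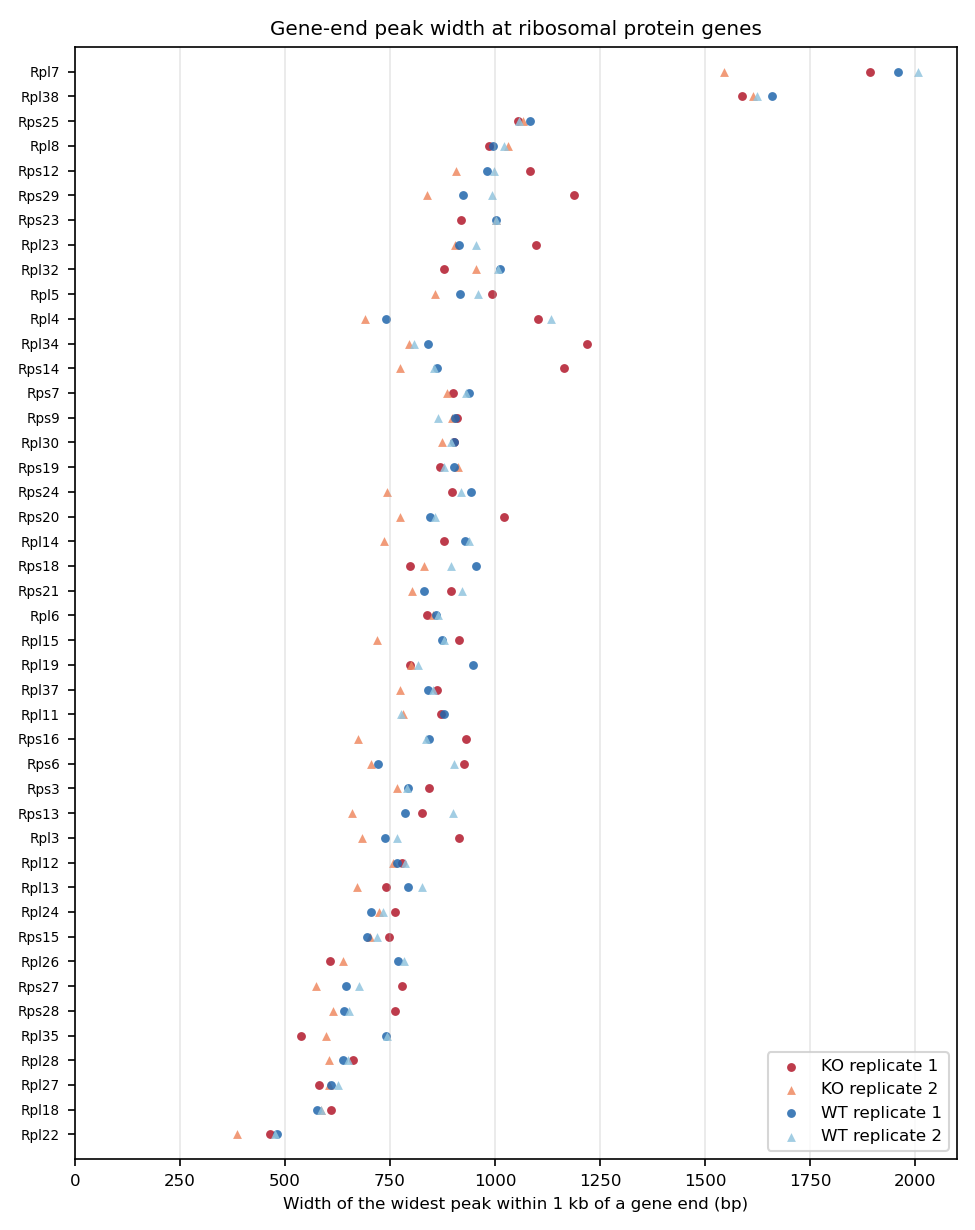
Width of the widest peak within 1 kb of a gene end (x axis, bp) for the 44 ribosomal protein genes with such a peak, ordered by mean width (y axis), 1 point per library. Rpl7 and Rpl38 stand apart at 1546 to 2007 bp and 1588 to 1660 bp, and Rpl22 is the narrowest at 387 to 482 bp.

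Rpl7 and Rpl38 were the 2 widest genes in every library, and Rpl22 was the narrowest in every library. Rpl7, a large-subunit protein gene, had peaks of 1894 and 1546 bp in KO and 1959 and 2007 bp in WT, and its peak also held an end of Rdh10, a retinol dehydrogenase gene. In KO replicate 2 a second peak lay beside it, and together they covered 1789 bp. Rpl38, whose protein is known for its part in translating Hox mRNAs, had peaks of 1588 and 1615 bp in KO and 1660 and 1624 bp in WT. Among all peaks of a list, their widths stood at the mean percentiles 99.8 and 99.6. Rps25 had 1055, 1068, 1084 and 1058 bp and shared its peak with an end of Trappc4, a vesicle-tethering gene. Rpl8 had 987 and 1032 bp in KO and 996 and 1021 bp in WT, and Rps12 1084 and 908 bp in KO and 981 and 997 bp in WT. After Rpl22, the narrowest were Rpl18 (576 to 609 bp, at the outer end of its span), Rpl27 (581 and 604 bp in KO, 611 and 627 bp in WT), Rpl28 (605 to 662 bp) and Rpl35.

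An end of another protein-coding gene lay in the widest peak of 10 of the 44 genes in at least 1 library. Besides Rpl7 and Rps25 these were the peaks of Rpl4 (Zwilch, Snapc5), Rpl12 (Lrsam1), Rpl15 (Nkiras1), Rpl19 (Cacnb1), Rpl37 (Card6), Rps18 (Vps52), Rps27 (Rab13) and Rps28 (Ndufa7). At these genes the peak cannot be given to the ribosomal protein promoter alone. The spans of 16 genes also held 28 small nucleolar RNA genes, which guide the modification of ribosomal RNA and are cut out of introns, with 5 in Rpl4 and 3 each in Rpl3, Rpl5 and Rps12.

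At 4 genes long known from human disease the libraries overlapped. Rps19, the gene most often mutated in Diamond-Blackfan anaemia, had peaks of 870 and 912 bp in KO and 903 and 878 bp in WT. Of its 3 listed starts, the innermost, 321 bp inside the span, lay under no peak. Rpl5 and Rpl11 encode the proteins that join 5S ribosomal RNA and restrain Mdm2 when ribosome assembly fails. Rpl5 had 994 and 858 bp in KO and 917 and 959 bp in WT, and Rpl11 872 and 781 bp in KO and 880 and 777 bp in WT. Rps14, lost in the 5q deletion syndrome, had 1165 bp in KO replicate 1 and 774 bp in KO replicate 2, on both sides of the WT widths of 862 and 855 bp. Its log2 difference was 0.18 ± 0.16 (SE), and without KO replicate 1 it was -0.015.

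No ribosomal protein gene passed the test of a width difference between the genotypes. limma on quantile-normalised log2 width called 0 of 13576 genes at an adjusted p under 0.05 (0.0% called, smallest adjusted p = 0.205), and 475 genes (3.5%) had an unadjusted p under 0.05. Of the 44 ribosomal protein genes, 0 passed either threshold, and their smallest adjusted p was 1.0. A p above the threshold does not show that the widths were alike. Leaving out KO replicate 1 or KO replicate 2 left only 1 KO library, so the spread in those fits came from the WT pair alone. The median log2 difference over the 44 was then 0.009 and -0.025, against 0.061 and -0.015 over all genes. With all 4 libraries it was 0.016, against 0.023. In that fit KO was lower at 18 (40.9%) and higher at 26 (59.1%), against 39.3% and 60.7% of all genes. This split depends on the scaling: with no normalisation KO was lower at 61.4% of the 44 genes, against 63.8% of all, with medians of -0.024 and -0.027. For the peak over the gene start, 0 of 37 had an unadjusted p under 0.05, against 2.77% of 9977 genes, and KO was lower at 15 (40.5%), against 38.6%.

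**Figure D3:**
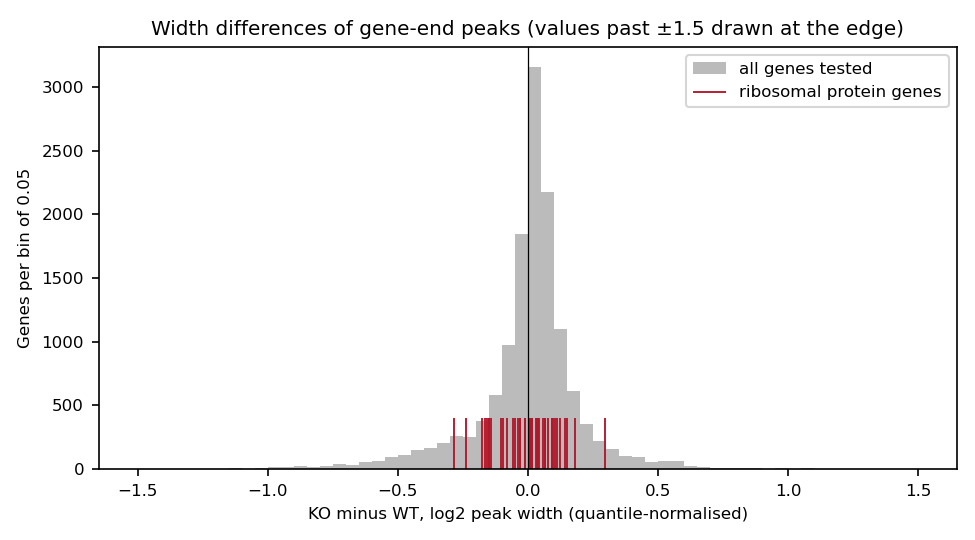
Histogram of the KO minus WT difference in quantile-normalised log2 peak width (x axis) for 13576 genes (grey, y axis in genes per bin of 0.05), with a red tick for each of 44 ribosomal protein genes. The red ticks lie between -0.28 (Rpl35) and 0.30 (Rpl34), within the bulk of all genes.

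In base pairs, 14 of the 44 genes (31.8%) had both KO widths below both WT widths, against 25.1% of all genes, and 0 had both above, against 4.43%. After quantile normalisation 6 genes (13.6%) had both KO values below, against 11.3%, and 9 (20.5%) had both above, against 22.1%. More genes had both KO values below than above in base pairs, and fewer after normalisation, among the 44 as among all genes.

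Rpl35 and Rpl26 had the lowest differences. Rpl35, a protein near the exit of the tunnel through which the new peptide leaves, had peaks of 539 and 599 bp in KO and 740 and 743 bp in WT, with every KO library below every WT library. The log2 difference was -0.28 ± 0.11 (SE, limma adjusted p = 1.0), and it was -0.16 without KO replicate 1 and -0.41 without KO replicate 2. Rpl26, a neighbour of the same tunnel exit that also binds p53 mRNA, had 607 and 639 bp in KO and 769 and 783 bp in WT, again without overlap, and a difference of -0.24 ± 0.10 (SE, limma adjusted p = 1.0). Without KO replicate 1 it was -0.14, and without KO replicate 2 it was -0.34. With no normalisation these were the only genes of the 44 with an unadjusted p under 0.05, and their smallest adjusted p was 0.689. Rpl14 (880 and 737 bp in KO, 929 and 938 bp in WT), Rpl7 and Rps24 (898 and 743 bp in KO, 943 and 919 bp in WT) came next, at -0.18, -0.17 and -0.16. At Rpl14 and Rps24 the lower value was that of KO replicate 2, and KO replicate 1 lay closer to WT.

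At the genes with the highest differences KO replicate 1 stood above the other 3 libraries, and Rpl34 also differed in how peaks were joined. Rpl34 had a single peak of 1219 bp over its start in KO replicate 1 and 796, 840 and 807 bp in the other 3 libraries, a difference of 0.30 ± 0.17 (SE, limma adjusted p = 1.0). Without KO replicate 1 it was 0.08, and without KO replicate 2 it was 0.50. In those 3 libraries a second peak lay in the same region, and together they covered 1098, 1127 and 1148 bp. Rps28 had 762 bp in KO replicate 1, against 615 bp in KO replicate 2 and 641 and 652 bp in WT (0.15 ± 0.09, SE). With no normalisation this was 0.08, and without KO replicate 1 it was 0.075. Rpl23, another binder of Mdm2, had 1098 bp in KO replicate 1 and 905, 914 and 956 bp in the others (0.13 ± 0.08, SE). Rpl18, with its peak at the outer end of the span, had 609 and 586 bp in KO and 576 and 586 bp in WT. The difference was 0.14 ± 0.08 (SE), or 0.04 with no normalisation and 0.08 with median centring. Over the Rpl18 start the direction was the other way in base pairs. That peak was 781 and 799 bp wide in KO and 824 and 831 bp in WT. Rpl4 showed such joining across genotypes: the peak over its start was 1102 bp in KO replicate 1 and 1134 bp in WT replicate 2 but 523 and 529 bp in KO replicate 2 and WT replicate 1, where 2 peaks together covered 979 and 1047 bp. Rps6, whose protein is the classic substrate of the S6 kinases, grouped the libraries alike, with 927 and 903 bp against 706 and 721 bp. Each library held only 1 peak near Rps6, reaching 479 and 307 bp downstream in KO and 314 and 480 bp in WT. Whether peaks were joined there was not tested.

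The edges of the peaks showed where the widths came from. For the 37 genes with a listed start, the covering peak reached a median of 350 and 315 bp upstream in the KO libraries and 339 and 347 bp in the WT libraries. It reached 444 and 413 bp downstream in KO and 440 and 452 bp in WT. Over 9977 genes covered in all lists the medians were 375, 336, 352 and 359 bp upstream and 448, 396, 440 and 452 bp downstream. The peak reached further downstream than upstream on average at 21 of the 37 genes (56.8%), against 58.2% of all genes. The furthest were Rpl38, 1400 to 1468 bp downstream, and Rps25, 842 to 875 bp upstream, whose peak held an end of Trappc4.

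**Figure D4:**
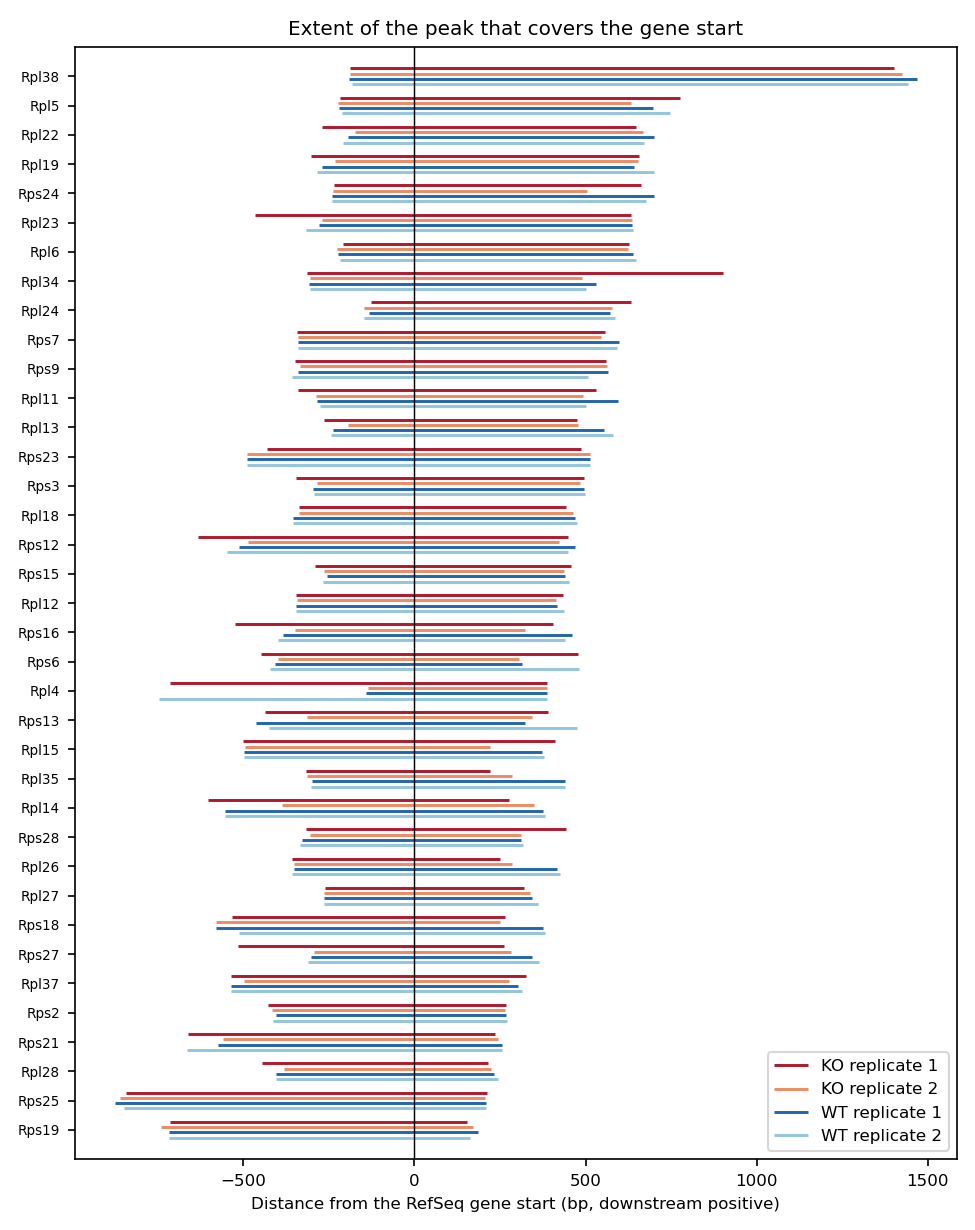
Extent of the peak over the RefSeq gene start (x axis, bp from the start, downstream positive) for 37 ribosomal protein genes, ordered by mean downstream extent (y axis), 1 line per library. Many genes have 1 edge that nearly coincides in all 4 libraries and another that varies, as at Rpl4, Rpl15 and Rpl26.

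At many genes 1 edge of the peak was nearly the same in all libraries. At 12 of the 37 genes (32.4%) an edge lay within 10 bp in all 4 libraries, against 11.7% of 9977 genes, and at 5 (13.5%) an edge had the very same coordinate in at least 3 libraries, against 5.45%. At Rpl4 the downstream edge lay 386 or 387 bp from the start in all 4 libraries, while the upstream edge ranged over 611 bp. At Rpl15 the upstream edge ranged over 5 bp and the downstream edge over 190 bp. Rps23 had 1003 bp in KO replicate 2 and in both WT libraries, with edges 490 bp upstream and 512 bp downstream each time, and 919 bp in KO replicate 1. Rps25 and Rps2 had downstream edges that ranged over 5 and 7 bp. Both edges lay within 10 bp at 0 of the 37 genes, against 0.361% of all genes. Many ribosomal protein genes have processed pseudogenes elsewhere in the genome, and how reads that match several places were treated is not stated. The part of such reads in these edges was not tested.

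The downstream edge was the side on which KO and WT separated at more of the 37 genes. Both KO downstream extents were below both WT extents at 17 of the 37 genes (45.9%), against 25.0% of 9977 genes, and both were above at 0, against 4.15%. Upstream, both KO extents were below at 4 genes (10.8%), against 16.8%, and above at 3 (8.11%), against 5.96%. The mean downstream extent was shorter in KO at 31 of the 37 genes. The mean upstream extent was shorter at 18, and the share over all genes was not computed for that side. In the limma fits with no normalisation the downstream share was 83.8%, against 67.0% of all genes. With quantile normalisation KO was lower downstream at 15 (40.5%), against 35.0%, and upstream at 12 (32.4%), against 46.5%. After quantile normalisation both downstream extents were below at 7 genes (18.9%), against 9.51%, and above at 7 (18.9%), against 23.3%. Both upstream extents were then below at 2 (5.41%), against 10.4%, and above at 8 (21.6%), against 16.4%. This comparison was chosen after its values were seen.

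Rpl35, Rpl26 and Rps18 were the genes at which the downstream edge lay furthest back in KO. At Rpl35 the peak reached 221 and 285 bp downstream in KO and 439 and 440 bp in WT, while the upstream extents were 317 and 313 bp against 300 and 302 bp. At Rpl26 it reached 249 and 285 bp downstream in KO and 416 and 425 bp in WT, while the upstream extents lay between 352 and 357 bp in all 4. At Rps18, whose peak also held an end of Vps52, it reached 264 and 250 bp downstream in KO and 375 and 382 bp in WT, with upstream extents of 534 and 580 bp against 580 and 512 bp. In each of the 3 the groups did not overlap downstream. The log2 differences in downstream extent were -0.66 ± 0.20, -0.51 ± 0.15 and -0.43 ± 0.09 (SE).

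limma on downstream extent called 0 of 9977 genes and 0 of the 37 ribosomal protein genes after adjustment (smallest adjusted p = 0.902 among the 37 and 0.147 among all). At an unadjusted p under 0.05 there were 3 of the 37 (8.11%), Rpl35, Rpl26 and Rps18, against 3.06% of all genes. With no normalisation there were 5 (13.5%, with Rpl13 and Rps27 added), against 5.01%. The smallest adjusted p was then 0.314 among the 37 and 0.15 among all. Upstream, with quantile normalisation, 0 of 37 had an unadjusted p under 0.05, against 2.16%. Leaving out a library left only 1 in its genotype, so the spread in those fits came from the other pair alone. The median log2 difference over the 37 was 0.098 and -0.058 without KO replicate 1 and KO replicate 2, against 0.094 and -0.009 over all genes. Without WT replicate 1 and WT replicate 2 it was 0.042 and 0.008, against 0.057 and 0.028. No call was made after adjustment in any of these.

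**Figure D5:**
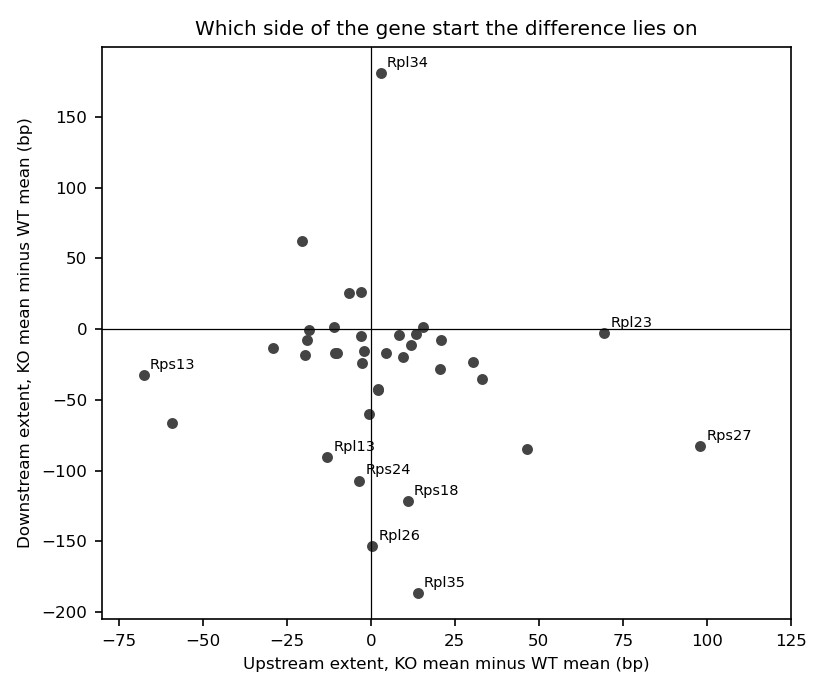
Difference between the KO and WT means of the upstream extent (x axis, bp) and of the downstream extent (y axis, bp) of the peak over the gene start, 1 point for each of 37 ribosomal protein genes. Rpl35, Rpl26 and Rps18 lie at -186.5, -153.5 and -121.5 bp on the downstream axis with 14, 0.5 and 11 bp upstream, and Rpl34 lies apart at 181 bp downstream.

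The other 38 genes of the ribosomal protein set, among them Rplp0, Rpsa and Rack1, had a like call rate. A peak near a gene end was present at 37 in each library, and the remaining gene, Rpl17, had a peak of 638 to 731 bp inside its span in each library. Their medians were 962 and 807 bp in KO and 868 and 876 bp in WT. In the limma fit 0 of the 37 passed after adjustment (smallest adjusted p = 1.0). At an unadjusted p under 0.05 there was 1 of the 37, against 3.5% of all genes. In base pairs, both KO widths were below both WT widths at 8 of the 37, against 25.1% of all genes. Both were above at 5 of the 37, against 4.43%. Of the tissue-restricted paralogs, Rpl3l of muscle had a peak in each library (728 and 605 bp in KO, 760 and 750 bp in WT), and Rpl10l and Rpl39l, known from the testis, had 0 peaks near an end or inside the gene in every library.

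Genes of translation and ribosome assembly were called at 24 of 25 in each library, the exception being Ubtf, the RNA polymerase I factor, which had 5 or 6 peaks inside its span in each. Their medians were 951.5 and 832 bp in KO and 860 and 888.5 bp in WT. Of 21 housekeeping genes, 19 and 18 had a peak near a gene end in KO and 18 and 18 in WT. Actb differed by list, with an end peak in KO replicate 1 alone, but each library had a peak inside its span (1318 and 701 bp in KO, 1321 and 1314 bp in WT). Ywhaz and Reep5 also had peaks inside the span in all 4 libraries, 1207 to 1240 bp and 1298 to 1418 bp at the widest. No gene of these groups passed the adjusted threshold in the limma fit (smallest adjusted p = 1.0).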

How the data were processed

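ATAC-seq peak lists of 2 Dnmt3a KO and 2 WT libraries were used. Each deposited list gives chromosome, start, end and width in bp for 1 library. The deposited width is a plain length with no normalisation, score or count beside it, per the file headers. Cutadapt, Bowtie2, Picard and the mm10 build appear in the submitters' processing notes. The peak caller, its threshold, its read filters and the treatment of reads that map to several places are not given in the sources used here. Autosomal, X and Y peaks were used. Gene spans and promoters came from RefSeq (GRCm38.p6, the same assembly as mm10); all 45 symbols matched a span and 37 a promoter. Per gene and list, the widest peak overlapping 1000 bp around either span end was taken. Where a gene had several listed starts, the start covered in all 4 lists and nearest to the span end was used.

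Widths were compared with limma (3.58.1, R 4.3.3) on quantile-normalised log2 width over all 13576 genes with a peak in all 4 lists, with Benjamini-Hochberg adjustment, and library values by two-sided exact permutation tests. Extents from the start were fitted as log2(extent + 1). The fit was tested on simulated data. Python 3.11.15 was used. The members, gene lists and motifs were chosen with earlier results of these data known.

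The genes named were those lacking a peak in a list, the 5 widest and 5 narrowest, the 5 highest and 5 lowest KO minus WT differences, the 3 with most peaks, and Rps14, Rps19, Rpl5 and Rpl11. Rps18, Rps23, Rps6, Rpl13, Rpl15, Rpl19, Rps27 and genes that share a peak were named after their values were seen. Alternatives covered the window, the end, the peak taken, list length, normalisation, the features fitted, the replicate number and each library left out. Results at some genes of the comparison and marker lists are not reported here.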

Additional observations from a re-analysis of the deposited data

How the results depend on the processing

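The number of genes called (0 of all genes and 0 ribosomal protein genes after adjustment, in limma) did not change under any alternative run: windows of 500 and 2500 bp, the start end alone, equal list length, the nearest or summed peaks, the peak over the start, merged regions, no normalisation, median centring, a replicate block or leaving out each library. The smallest adjusted p over all genes ranged from 0.0549 without KO replicate 2 to 0.683 without WT replicate 1, and with all 4 libraries it was 0.0622 with a window of 500 bp and 0.105 with the nearest peak, against 0.205 as reported. A fit without a library had only 1 library in that genotype, so its spread came from the other pair alone. With the replicate block 0 genes were called (smallest adjusted p = 0.169). The replicate numbers were not shown to pair the samples: the difference between replicates 1 and 2 had a correlation of -0.1785 between genotypes across 13576 genes, and the crossed pairing, added after seeing the data, also called 0.

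The KO minus WT difference in the number of ribosomal protein genes with a peak was 0, and -1.0 when peaks narrower than the list median were dropped. The gene that dropped out was Rpl22, by the peak near its far end. That peak was 465 and 387 bp wide in KO, under list medians of 467 and 407 bp. In WT it was 482 and 476 bp wide, over medians of 431 and 443 bp. Why these widths differed was not tested. Leaving out each library gave 0 for this number, -3.0 to -1.0 for the number of peaks, and -84.5 to 29.5 bp for the median width, which reversed only without KO replicate 2. At Rps14 the difference ranged from -0.015 without KO replicate 1, where it reversed, to 0.378 without KO replicate 2. Peaks by score could not be used, since the lists hold none.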
